A study of Mus musculus with 2 samples.

Results

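Melanocytes are the pigment cells of skin, and 10 genes that mark them and their pigment machinery were followed here in newborn mouse skin with and without Pnpla1, a gene of the patatin-like phospholipase family that is needed to make acylceramide, a lipid of the skin barrier. The genes were Tyr, Tyrp1, Dct, Pmel, Mlana, Oca2, Slc45a2, Mitf, Sox10 and Kit. They were found by gene name among the probes other than controls, by a rule that uses no measured value, and 13 of 39429 probes, on 22 of 43020 spots, carried one of these names. All 10 genes were therefore represented, out of 30133 gene names on the array.

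Wild type (Pnpla1+/+) and knockout (Pnpla1-/-) mice on the C57BL/6N background were compared at postnatal day 0, and RNA of 6 animals was pooled for each genotype and put on 1 Agilent array. The knockout was global, came from a knockout-first allele whose reporter and selection cassettes had been removed by flippase, and was bred by intercross of heterozygotes. The sample labels call the tissue skin, whereas the deposited design text speaks of epidermis. With 1 array per genotype there is no replicate for any value below, and no test between the genotypes was possible.

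Pigment is made in melanosomes, organelles of melanocytes related to lysosomes. Tyrosinase (Tyr) starts the oxidation of tyrosine, and its relatives Tyrp1 and dopachrome tautomerase (Dct) act on later intermediates of the path to eumelanin. Pmel builds the fibrils on which pigment settles, Mlana is a melanosomal membrane protein, and Oca2 and Slc45a2 are transporter proteins that set the conditions inside the melanosome. Mitf and Sox10 are transcription factors of the lineage, and Kit is the receptor through which stem cell factor supports melanocytes. In newborn mouse skin most pigment cells of hairy skin lie in or move into the growing hair follicles.

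After scaling, 9 of the 10 pigment genes had a lower signal on the knockout array than on the wild-type array, and Tyrp1 had a higher signal. The median log2 difference of the 10 genes, knockout minus wild type, was -0.32, with a range from -0.56 for Oca2 to 0.12 for Tyrp1. Of all 22382 genes with a value, 49.8% lay below 0, and their median was 0.00. No pigment gene was at least 2-fold lower, a mark passed by 681 genes (3.04%), and none was at least 2-fold higher, a mark passed by 1499 genes (6.7%). Signals are the background-subtracted spot intensities that the authors deposited, each divided by its array's own 75th percentile, 2108 for wild type and 1734 for knockout. The result of this division is called the scaled signal below. It sets each gene against the other RNA of the same array, and so depends on that other RNA too. Fewer melanocytes, less of these transcripts in each melanocyte and more RNA of other cells cannot be told apart.

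The labels could be checked on Pnpla1. Its probe on chromosome 17 (mm9, chr17:29026908-29026967) gave an intensity of 579 in wild type and 114 in knockout, a log2 difference of -2.07, and it was well above background on both arrays. Where this probe lies relative to the disrupted part of the gene was not known here.

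All 13 probes were well above background on both arrays, with no saturated and no outlier-flagged spot, so that the melanocyte genes were detected in both pools. Of all spots, 71.8% in wild type and 73.3% in knockout were well above background. Before scaling, all 10 genes had a lower intensity in knockout than in wild type, as did 73% of all genes. Scaled signals of 11 of the 13 probes were lower in knockout.

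**Figure D1:**
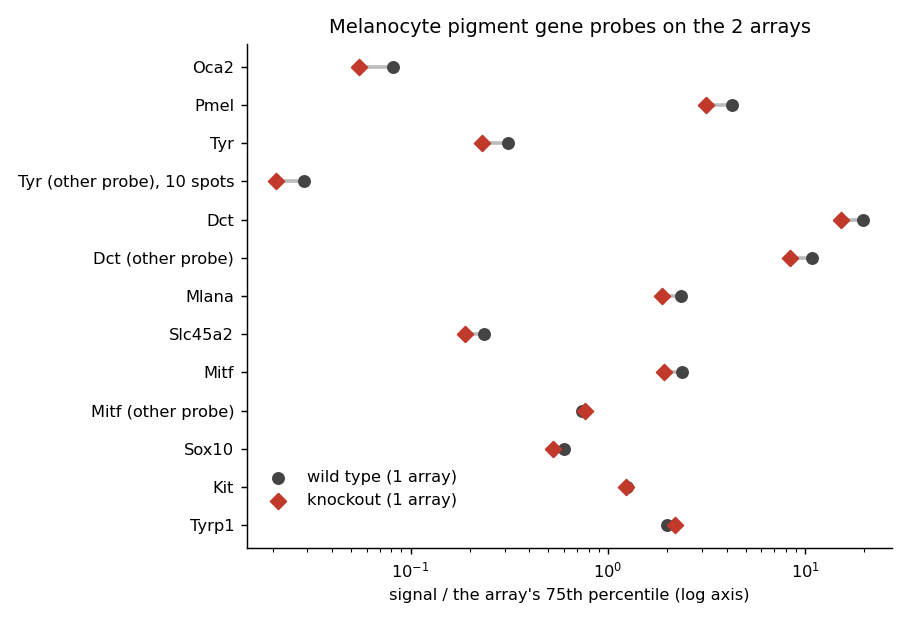
Scaled signal (spot intensity over the array's 75th percentile, log axis) of the 13 probes for the 10 pigment genes, with a circle for the wild-type array and a diamond for the knockout array; signals of different probes are not comparable with each other. The diamond lies to the left of the circle for 11 probes, and to its right for Tyrp1 and for the other probe of Mitf.

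The spread of repeated spots gives the only error that can be measured on these arrays. Over 314 probes with at least 8 spots, the median technical SD of a log2 difference was 0.08, and over the 52 of them with intensities under 200 on both arrays it was 0.20. By the first of these values, 8 pigment genes lay farther below 0 than 1 technical SD, Kit lay within it and Tyrp1 lay farther above. Of all genes, 41.2% lay farther below 0 and 42.5% farther above than this SD, so that to pass it is common on these arrays. This spread covers spots of the same hybridization and no difference between mice, between pools or between hybridizations.

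Of the enzymes of the tyrosinase family, Tyr and Dct had lower and Tyrp1 a higher scaled signal in knockout, while all 3 were lower without scaling and with spike-in centring. Tyr was measured by a pair of probes on chromosome 7 that lie 56089 bases apart. The probe at chr7:94632414-94632473 (mm9, minus strand) gave an intensity of 654 in wild type and 401 in knockout, that is, scaled signals of 0.310 and 0.231. The knockout signal was 25.4% lower, a log2 difference of -0.42. The probe at chr7:94576265-94576324 stood on 10 spots of each array. Its intensity ranged from 49.7 to 72.1 in wild type, with a median of 62.9, and from 29.3 to 40.6 in knockout, with a median of 37.7. Scaled, the wild-type spots ranged from 0.0236 to 0.0342 and the knockout spots from 0.0169 to 0.0234, so that the spots of the arrays did not overlap, by a narrow margin. The mean log2 difference of this dim probe was -0.47, with an SD of 0.24 for a single spot, and it differed from that of the other probe by 0.05.

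**Figure D2:**
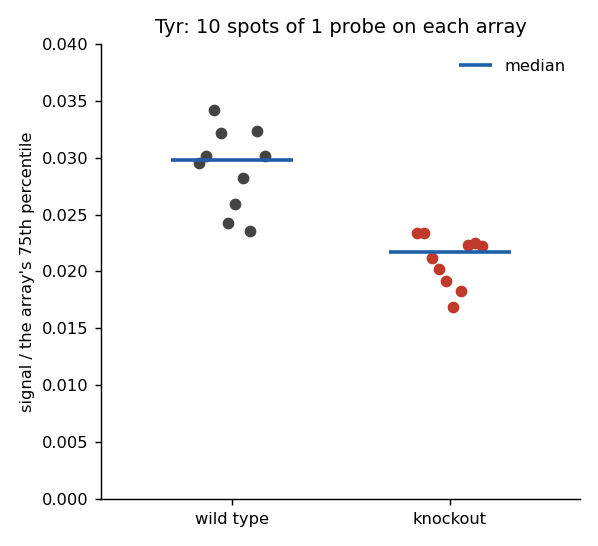
Scaled signal of each of the 10 spots of the Tyr probe at the lower coordinates on the wild-type and the knockout array, with the median as a line; the spots are technical repeats of 1 hybridization. Knockout spots lie between 0.0169 and 0.0234 and wild-type spots between 0.0236 and 0.0342.

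Dct gave an intensity of 41510 in wild type and 26232 in knockout with its brighter probe, with scaled signals of 19.7 and 15.1 and a log2 difference of -0.38. Its other probe gave 22866 and 14630, a difference of -0.36, and is no independent measurement, since the probes overlap. On both probes the knockout signal was the lower.

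Tyrp1 was the 1 gene of the 10 with a higher scaled signal, on a single probe. The probe (mm9, chr4:80497524-80497583) gave an intensity of 4230 in wild type and 3780 in knockout, and scaled signals of 2.01 and 2.18. The knockout array was thus lower before scaling and 8.65% higher after it, a log2 difference of 0.12. This value lay 0.54 above that of Tyr and 0.50 above that of Dct. The spread of such a gap between mice or pools is not known, and probes of the same gene could differ by 0.35, as those of Mitf did.

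The promoters of the 3 enzymes are shown since Mitf is known to bind the sequence CATGTG, an E-box variant, in promoters of this family. They are the 250 bases before the annotated start, from RefSeq on GRCm38.p6, a later build than that of the probes, with each CATGTG on either strand in capitals.
Tyr, chr7:87493513-87493762, minus strand: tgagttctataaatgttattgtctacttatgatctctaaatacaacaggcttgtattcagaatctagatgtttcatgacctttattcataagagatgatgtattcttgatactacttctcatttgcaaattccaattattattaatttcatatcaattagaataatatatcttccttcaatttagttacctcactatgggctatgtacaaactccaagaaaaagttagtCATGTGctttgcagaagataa
Tyrp1, chr4:80833963-80834212, plus strand: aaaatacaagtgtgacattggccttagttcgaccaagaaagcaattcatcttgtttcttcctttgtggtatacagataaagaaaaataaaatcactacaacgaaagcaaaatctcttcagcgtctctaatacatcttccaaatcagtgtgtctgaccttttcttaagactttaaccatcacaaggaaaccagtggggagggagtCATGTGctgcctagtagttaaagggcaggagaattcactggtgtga
Dct, chr14:118052247-118052496, minus strand: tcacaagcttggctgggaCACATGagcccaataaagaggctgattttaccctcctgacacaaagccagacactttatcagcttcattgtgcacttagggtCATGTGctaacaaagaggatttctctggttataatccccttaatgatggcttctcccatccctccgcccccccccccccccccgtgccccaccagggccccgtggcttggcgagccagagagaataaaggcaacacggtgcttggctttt

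CATGTG began 21 bases before the start of Tyr, 46 bases before that of Tyrp1, and 150 bases before that of Dct, with its reverse complement 232 bases before. All 3 promoters thus held it, those of the genes that were lower in knockout and that of Tyrp1 alike. The table of promoters held 9 windows for 6 of the pigment genes (1 each for Tyr, Tyrp1, Dct and Oca2, 2 nearly identical ones for Kit and 3 for Mitf), each of 300 bases that end 50 bases after the start. CATGTG, read on both strands, lay in 4 of these windows, the fourth being that of Oca2, 186 bases before its start. Of all 32851 promoters in the table, 14.2% held it. CACGTG, the palindromic E-box that Mitf also reads, lay in none of the 9 windows and in 7.15% of all promoters. TATAAA on either strand lay in 2 windows, of Tyr and of 1 start of Mitf, and in 13.6% of all promoters. These letter matches are a description of the sequence and not of binding.

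Pmel and Mlana, which encode structural and membrane proteins of the melanosome, both had lower signals in knockout. Pmel (mm9, chr10:128156029-128156986, a match split over 958 bases) had an intensity of 8952 in wild type and 5426 in knockout, with scaled signals of 4.25 and 3.13 and a log2 difference of -0.44. Mlana (chr19:29782737-29782796) had 4970 and 3259, with scaled signals of 2.36 and 1.88 and a difference of -0.33. These are 26.3% and 20.3% below wild type.

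Oca2 showed the lowest difference of the 10 genes, a place that Pmel took under normexp background correction, and had the dimmest main probe. Its intensity at chr7:63791667-63791726 was 171 in wild type and 95.3 in knockout, with scaled signals of 0.0813 and 0.0550. The log2 difference of -0.56, or 32.3% lower, stands against the technical SD of 0.20 for probes this dim, and 9.86% of all genes had a lower value. Slc45a2 (chr15:10958929-10958988) gave 499 and 329, with scaled signals of 0.237 and 0.190 and a difference of -0.32.

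The lineage genes Mitf, Sox10 and Kit had values from -0.30 to -0.03. Mitf gave an intensity of 5010 in wild type and 3351 in knockout with its brighter probe (chr6:97971229-97971288), with scaled signals of 2.38 and 1.93 and a log2 difference of -0.30. Its other probe, 2668 bases upstream at chr6:97968501-97968560, gave 1567 and 1336, with scaled signals of 0.743 and 0.771 and a difference of 0.05. The probes of Mitf thus differed by 0.35 and pointed in opposite directions, and their mean was -0.12. Sox10 (chr15:78985518-78985577) gave 1265 and 912, with scaled signals of 0.600 and 0.526 and a difference of -0.19. Kit (chr5:76052394-76052453) gave 2652 and 2133, with scaled signals of 1.26 and 1.23 and a difference of -0.03, which is within the technical SD.

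In order from the lowest difference, the genes were Oca2, Pmel, Tyr, Dct, Mlana, Slc45a2, Mitf, Sox10, Kit and Tyrp1. From Pmel to Sox10, no gene differed from its neighbour in this order by more than the technical SD of a gap, 0.12, which covers spots alone. Oca2 lay 0.12 below Pmel, which is less than the SD of 0.20 that a dim probe carries alone. The gaps from Sox10 to Kit and from Kit to Tyrp1, 0.16 and 0.15, were wider than that SD. Without Kit and Sox10, which other cells of skin also express, the median of the other 8 genes was -0.35. These 8 still include Mitf, whose probes pointed in opposite directions. Whether other cells had a part in the values of the 8 genes was not tested.

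**Figure D3:**
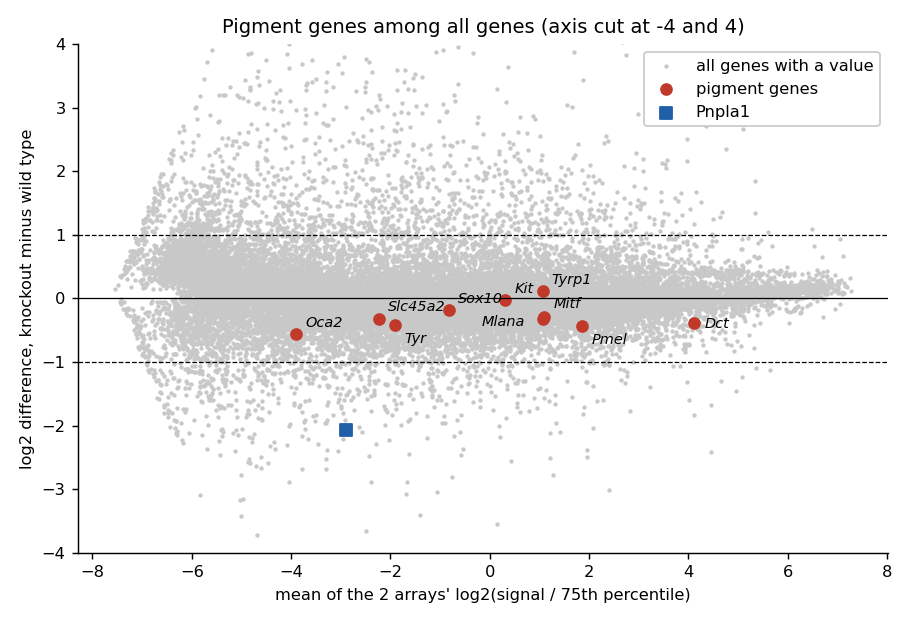
Log2 difference, knockout minus wild type, against the mean log2 scaled signal of the 2 arrays for all 22382 genes with a value (grey), the 10 pigment genes (red circles) and Pnpla1 (blue square), with dashed lines at 2-fold. The pigment genes lie inside the lines between -0.56 and 0.12, and Pnpla1 lies at -2.07.

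The direction depended on the scaling for Tyrp1 and Kit, and not for the other 8 genes in 13 settings. Of the 12 alternatives, however, 4 leave these genes' values as they are or nearly so and 4 shift every gene down alike, so that quantile normalization, cyclic loess, normexp and the mean over probes alone could have turned a lower gene. With no scaling between arrays the median of all genes moved to -0.28, and with centring on 8 E1A spike-in probes, RNA added by the kit in a fixed amount, it moved to -0.43. All 10 pigment genes were then below 0, as were 73% and 80.8% of all genes. The medians of the 10 genes were -0.60 and -0.75, and Tyrp1 was at -0.16 and -0.31. The distance between the pigment genes' median and that of all genes was -0.32 in both. Under cyclic loess Kit was at 0.05 and 8 of the 10 genes were below 0. The share of higher genes among those past 2-fold, 68.8% in the main setting, was 58.8% under quantile normalization, 41.2% without scaling and 27.5% with the spike-in. That share was 74.9% under normexp and 73.3% with no filter on dim probes. Oca2 came nearest to 2-fold, at -0.99 with the spike-in, and was at -0.26 under normexp background correction, where Pmel was the lowest at -0.41.

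**Figure D4:**
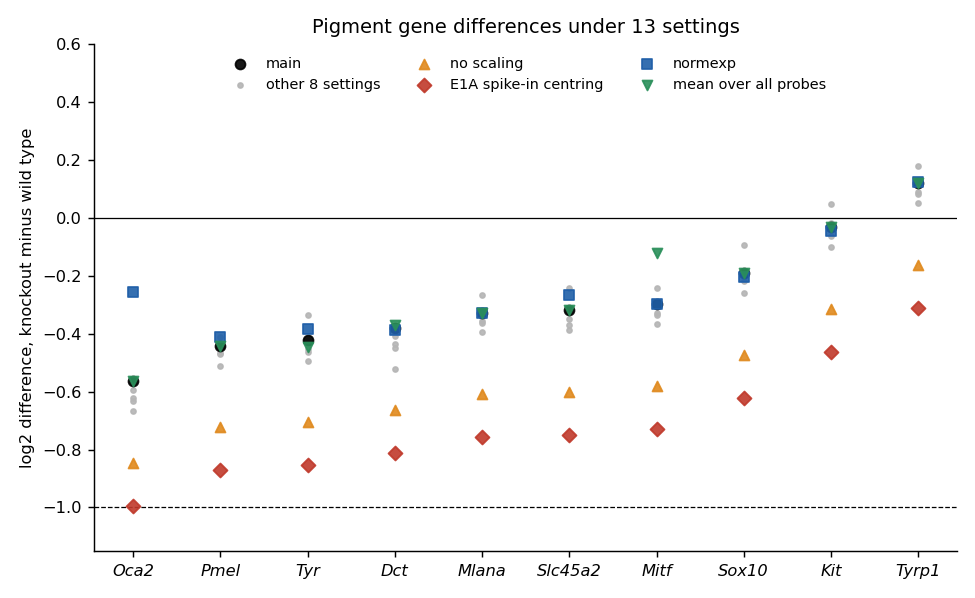
Log2 difference, knockout minus wild type, of each pigment gene under 13 settings, ordered by the main value, with 5 settings marked and the other 8 in grey, and a dashed line at 2-fold lower. Tyrp1 is below 0 with no scaling and with the spike-in, Kit is above 0 in 1 setting, and the other 8 genes are below 0 in each, though 8 of the 12 alternatives could not have raised them.

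Further genes of the pigment pathway were read from lists that do not contain the 10 genes. Of 17 melanosome and pigment effectors, none was at least 2-fold higher or lower, 9 were below 0, and Cd63 was the brightest. Their median was -0.06 (0.03 under normexp, -0.34 without scaling and -0.49 with the spike-in). Slc24a5, a melanosomal cation exchanger, had an intensity of 1526 in wild type and 899 in knockout and a log2 difference of -0.48. Gpr143, a melanosomal receptor that controls organelle size, went from 386 to 250, a difference of -0.35. Gpnmb, a relative of Pmel, was at -0.53, and Sytl2, a Rab27a effector in melanosome transport, was at -0.61, the lowest of the list. On the high side were Mreg (0.63) and Rab32 (0.53), which act in organelle trafficking, and Mfsd12 (0.63), a transporter of melanosomes and lysosomes. Other cell types also use these genes. For the transport complex that carries melanosomes along actin, Rab27a was at 0.11, Mlph at -0.19 and Myo5a at -0.11. The signal of Mlph was dim (135 in wild type and 97.6 in knockout). Trpm1, a channel of melanocytes, cannot be summed up by a single value, since its brightest probe gave 0.30 and its other 3 probes gave -0.67, -0.93 and -2.82, the last from a signal that was not well above background in knockout.

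Among 16 lineage receptors and transcription factors 9 were below 0 and 7 above, and the median was -0.29, with 1 gene at least 2-fold lower, 1 at least 2-fold higher and Sox5 as the brightest. Mc1r, the melanocortin receptor that switches melanocytes to eumelanin, had an intensity of 973 in wild type and 455 in knockout, a log2 difference of -0.81, lower than that of any of the 10 pigment genes. Ednrb, the endothelin receptor of melanoblasts, was at -0.42 and -0.55 on its 2 probes. Pax3, which acts upstream of Mitf, was at -0.67 with its brighter probe and at -0.65 with a probe on 9 spots. The gene past 2-fold on the low side was Lef1, a Wnt effector that hair follicle cells also express, at -1.01 and -0.98 on its 2 probes, and it was at -0.99 under cyclic loess and as the mean of its probes. Tfec, a relative of Mitf, was the gene past 2-fold on the high side at 1.82, from a dim signal of 39.8 in wild type and 116 in knockout, and it was at 1.05 under normexp. The other Mitf relatives were Tfe3 at 0.51 and Tfeb at 0.11. Erbb3, a neuregulin receptor of the neural crest lineage, was at 0.83 from a dim signal (117 and 171). Met, the receptor of Hgf, was at 0.20 from a dim signal (117 and 111), about the technical SD of such probes. The transcription factors Sox5 and Foxd3 were at 0.10 and 0.01.

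Signals that reach melanocytes from other cells of skin were measured for 12 of 15 listed genes, with a median of -0.37. This median was -0.18 under normexp, -0.65 without scaling and -0.80 with the spike-in. It was -0.19 with no filter on dim probes, where more of the listed genes count. Kitl, the ligand of Kit, had an intensity of 690 and 615 and a log2 difference of 0.12. Edn3, the ligand of Ednrb, was dim (73.8 and 40.3), with a difference of -0.59. The 2 genes past 2-fold were both lower, Dkk1, a Wnt inhibitor, at -1.80 (intensity of 1400 in wild type and 331 in knockout) and Corin, a protease of the dermal papilla that modifies agouti signalling, at -1.49 (407 and 119). Neither Adamts20 nor Wnt3a was well above background in either pool, so that they have no difference, Bmp4 was the brightest gene, and Asip was not matched to a probe.

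The list of 19 genes of lysosome-related organelle biogenesis includes some whose loss causes pigment dilution. Its median was 0.03 (-0.04 under median scaling, -0.25 without scaling and -0.40 with the spike-in). None of its genes was at least 2-fold lower, and Ap1s1 was the brightest. By their brightest probes, the BLOC and AP-3 subunits stayed between -0.38 (Bloc1s4) and 0.20 (Bloc1s3). The probes of Hps1, a BLOC-3 subunit, pointed in opposite directions, at -0.20 for the brighter and 0.49 for the other. Slc7a11, the cystine transporter that also feeds pheomelanin synthesis, was the 1 gene past 2-fold, with an intensity of 29.8 in wild type and 900 in knockout and a log2 difference of 5.20. The lowest intensity called well above background in wild type was 23.9, close to that of Slc7a11, and under normexp its difference was 3.72. It is also known as a gene of the oxidative stress response in many cell types, so that its list does not describe its usual role.

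Markers of other cells of the skin were set beside the pigment genes. The widest shift was in 21 measured genes of the hair follicle matrix, inner root sheath and hair shaft, where 20 were below 0 and 11 were at least 2-fold lower, with a median of -1.01. Their summed scaled signal was 127 in wild type and 72.3 in knockout, and Krt71 was the brightest. The 11 genes were Krt72 (-3.41), Krt33a (-1.70), Krt34 (-1.66), Krt33b (-1.59), Krt31 (-1.47), Krt86 (-1.34), Krt35 (-1.33), Krt28 (-1.23), Krt27 (-1.10), Shh (-1.10) and Hoxc13 (-1.01). Hoxc13 was at -0.91 under cyclic loess and under normexp, and Shh at -0.87 under normexp, so that these calls ended there. The summed scaled signal of the 10 pigment genes was 33.2 in wild type and 26.5 in knockout, with Dct as the brightest. Such sums are led by the brightest probes and are not comparable between lists. The part of the hair follicle in the pigment genes' values was not tested.

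Kit is also a gene of mast cells. Mast cell markers had a median of -0.49 over 12 measured genes, of which 2 were at least 2-fold lower, Tpsab1 at -2.67 and Mrgprb2 at -1.05, and 1 was at least 2-fold higher, Fcer1a at 1.41. Tpsab1 had an intensity of 218 in wild type and 28.1 in knockout, where the lowest intensity well above background was 21.7. Under normexp Tpsab1 was at -1.28 and Mrgprb2 at -0.83. Mrgprb2 was at -0.99 under cyclic loess, and Fcer1a was at 0.97 with the spike-in. Their summed scaled signal was 70.3 in wild type and 54.3 in knockout, Cpa3, at -0.52, was the brightest, and Mcpt1 was not well above background. Sox10 is also a gene of Schwann cells. Schwann cell and glial markers had a median of -0.12 over 15 genes (-0.005 under normexp, -0.406 without scaling and -0.555 with the spike-in). Their sums were 15.4 and 15.3, a ratio of 0.999 that was 1.21 without the brightest gene, Pmp22. Both ratios include Mbp, a myelin protein, whose scaled signal was 1.25 in wild type and 3.17 in knockout. They therefore do not describe the other genes of the list, of which most were not past 2-fold in either direction. Mbp was past 2-fold at 1.34 with its brightest probe (0.30 and 1.39 with its others), and at 0.91 with the spike-in. The share of these cells in the values of Kit and Sox10 was not tested.

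Basal keratinocyte markers, in the layer where epidermal melanocytes sit, had a median of 0.15 over 8 genes. This median was 0.01 under quantile normalization, 0.04 with the mean over probes, and below 0 without scaling and with the spike-in. The sums of these markers were 199 and 230, with Krt5 as the brightest, Krt14 past 2-fold at 1.35 (0.92 with the spike-in) and Krt15 at -1.67. Fibroblast markers had a median of -0.16 over 8 genes, with sums of 352 and 329, Col1a2 as the brightest and Twist2 past 2-fold at -1.05. That median was -0.33 under quantile normalization, -0.31 under cyclic loess, -0.44 without scaling and -0.59 with the spike-in.

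**Figure D5:**
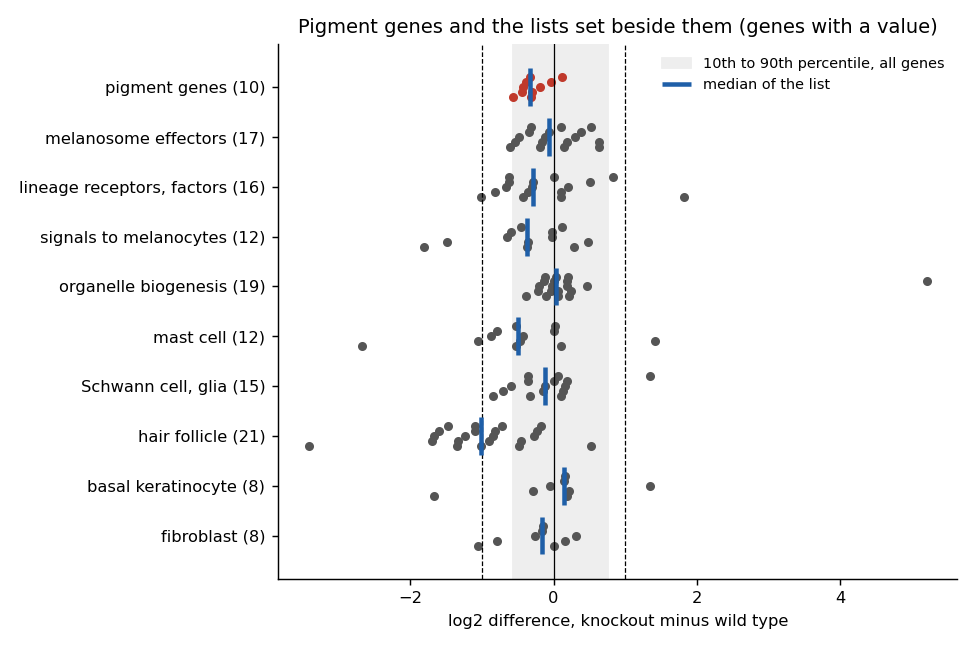
Log2 difference, knockout minus wild type, of each measured gene (points) in the pigment genes and 9 lists set beside them, with the number of genes in brackets, the median as a blue line and the 10th to 90th percentile of all genes in grey. The pigment genes span the shortest range of these lists, from -0.56 to 0.12, while the hair follicle list is centred on -1.01 and Slc7a11 stands at 5.20.

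The pools also differed in sex-linked genes. Ddx3y and Eif2s3y, on the Y chromosome, were both at -2.19 and Xist, expressed from the inactive X chromosome, was at 1.12. Uty and Kdm5d, also on the Y chromosome, were well above background in wild type only. Whether the sex of the pooled animals had a part in the pigment genes' values was not tested.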

How the data were processed

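Skin RNA of 2 pools (6 mice each) was hybridized by the authors with 1 dye to Agilent 4x44K mouse arrays, on 1 slide. Scans were read in Feature Extraction 11.5.1.1, and the authors deposited background-subtracted spot intensities with quality flags. A further table that they deposited holds the ratio of each intensity to 1 factor per array (2109 and 1734), with no centring by gene.

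From the deposited intensities, log2 of the signal over the array's 75th percentile was computed (Python 3.11.15, numpy 2.4.6, pandas 2.3.3). Outlier-flagged spots on either array (138 and 82 spots) were left out and repeated spots averaged. Of all spots, 71.8% and 73.3% were well above background. A gene was given by its brightest probe. Genes well above background on both arrays (20680) have a difference, and those on 1 array have a bound (1702), which is counted at its bound. Names were updated through RefSeq for 31455 of 39429 probes, while 7974 kept the file's name.

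The pigment genes and lists were chosen with earlier results of these data known. Named genes are the pigment genes, Pnpla1, listed genes past 2-fold, and pathway genes with a known role. For each list the counts past 2-fold, the median and the brightest gene are given. Alternatives were other scalings (median, none, percentile over measured probes, quantile, cyclic loess, spike-in, the deposited ratios), normexp background correction, other rules for probes, dim signals and flagged spots, and other fold thresholds, with limma 3.58.1 under R 4.3.3. The computation was tested on simulated data. Protein sequences were not used here, and probe sequences are not reported here. The number of arrays limits the precision.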

Additional observations from a re-analysis of the deposited data

How the results depend on the processing

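No pigment gene was past 2-fold under 12 other settings. At 1.5-fold lower none passed in the main setting (9.35% of all genes), 6 passed without scaling (21.5%), 8 with the spike-in (34.2%), and 1, Oca2, under median scaling (11.2%), the percentile over measured probes (10.1%), quantile normalization (11.7%) and cyclic loess (9.53%). Their median was -0.60 without scaling and -0.75 with spike-in centring, and it moved by less than the technical SD in the other alternatives. Tyrp1 turned to -0.16 and -0.31 in these settings, and the basal keratinocyte median to -0.13 and -0.28. Pnpla1 was at -2.35 without scaling, -2.50 with the spike-in and -1.51 with normexp at an offset of 50. The numbers of all genes at least 2-fold lower and higher were 1424 and 998 without scaling, 2178 and 827 with the spike-in, 321 and 960 with normexp, 1.1e+03 (rounded) and 3041 with no filter on dim probes, 2092 and 3093 at 1.5-fold, and 228 and 684 at 3-fold. The cause was not tested, except that the thresholds and the filter change which genes count. Of 504 further values, 370 kept their sign and moved by less than the technical SD, 125 kept it and moved by more, and 9 changed sign, 5 of them from a value within that SD of 0. Of 23 listed genes past 2-fold, 7 were under it in some alternative. No paired analysis was possible because each genotype has 1 array and the result comes from no test. A slide term could not be fitted, and no setting replaces the missing replicates.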
